A study of Rattus norvegicus with 30 samples.

Results

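The comparison followed the tissue that bridged a cut median nerve of the rat between day 7 and day 14 after immediate repair. It held 8 of the 30 samples of the series, 4 taken on day 7 and 4 taken on day 14, chosen by their labels. All were from adult female rats of wild-type (WT) genotype. The nerve, which runs down the forelimb, had been cut with 8 mm left between its stumps, and a 10 mm tube of chitosan was placed across it in the same operation. The tissue inside the tube was collected, and its poly(A) RNA was sequenced. Samples outside the comparison served only as reference: 5 of uninjured control nerve, 5 of immediate repair on day 21, and 12 of a repair delayed by 3 months (5, 4 and 3 samples on days 7, 14 and 21). The labels give neither strain nor age in weeks, and they do not say whether samples of a day came from separate animals. The p-values therefore measure only the spread between these samples, which may be technical.

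A nerve stump that faces an empty tube first fills it with fluid and a cable of fibrin, which inflammatory cells, fibroblasts and endothelial cells enter. Schwann cells then migrate from both stumps along that cable, and axons grow with them from the proximal end. In bulk tissue of this kind, a higher level of a transcript can come from more cells of a type or from more RNA per cell, and the data cannot tell these apart. The deposited table lists Ensembl gene IDs, none of which matched the symbol table used here. The labelled tissue was therefore not checked against marker genes, and results are given for sets of genes defined by their behaviour, with 4 single genes named by ID.

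The 4 libraries of each day differed among themselves along the same direction that separates the days. This was measured with the genes called in delayed repair between its day 7 and day 14 (1718 higher and 1623 lower). Libraries of the immediate repair entered that choice only through the scaling factors, which came from all 30 libraries. For each library the median level of the delayed falls was subtracted from that of the delayed rises, on the log2 scale and relative to the mean of the 8 libraries. The immediate day 7 libraries stood at -0.33 (replicate 1), -1.14 (replicate 2), -1.63 (replicate 3) and -2.11 (replicate 4). The immediate day 14 libraries stood at 1.93 (replicate 1), 0.51 (replicate 2), 1.24 (replicate 3) and 1.61 (replicate 4). All 4 day 14 libraries therefore lay above all 4 day 7 libraries, with day 7 replicate 1 and day 14 replicate 2 nearest to each other. Spearman correlations over the 13950 tested genes placed the same pair closest across the days, at 0.946, while day 7 replicate 4 and day 14 replicate 1 were the farthest apart at 0.703. Among the day 7 libraries the correlation ran from 0.870 to 0.967, and among the day 14 libraries from 0.930 to 0.967.

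**Figure D1:**
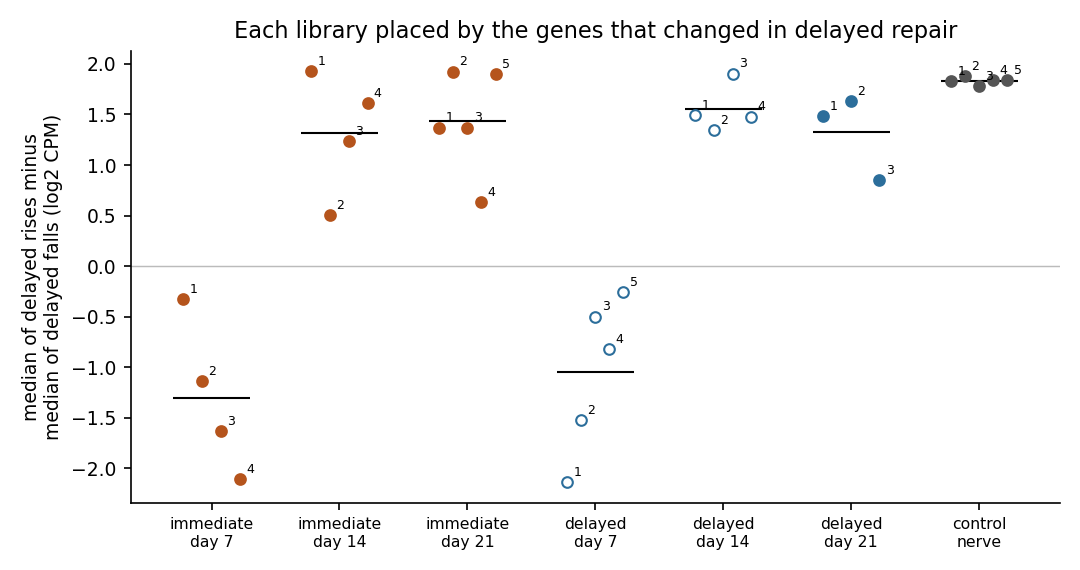
Position of each of the 30 libraries (points, numbered by replicate; lines, group means) by the genes called in delayed repair between its day 7 and day 14: median log2 CPM of the rises minus that of the falls. The groups whose libraries chose the genes are drawn open. The immediate day 7 libraries lie between -2.11 and -0.33 and the immediate day 14 libraries between 0.51 and 1.93.

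The day 7 tissue was the more variable. The biological coefficient of variation, the spread between samples beyond counting error, was 50.7% on day 7 and 32.3% on day 14. The standard deviation of log2 CPM (CPM being the count scaled to library size) was larger on day 7 in 65.5% of tested genes, with medians of 0.37 and 0.28. Total counts lay between 11958242 and 16058103 on day 7 and between 13819384 and 15010655 on day 14. Rank correlation with the mean of control nerve was 0.58 to 0.71 on day 7 and 0.76 to 0.82 on day 14.

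Between day 7 and day 14, 1642 genes rose and 1280 fell, together 2922 of 13950 tested or 20.9% (11.8% higher and 9.18% lower; 4 against 4 libraries, edgeR's quasi-likelihood test with p-values adjusted over all tested genes by Benjamini-Hochberg, threshold 0.05). The rises were much larger than the falls. Their median log2 fold change was 2.63 (quartiles 1.39 and 4.14, median SE 0.55), against -1.05 for the falls (quartiles -1.62 and -0.72, median SE 0.24). Of the rises, 1404 were at least 2-fold, 1023 at least 4-fold and 449 at least 16-fold. Of the falls, 670, 195 and 21 reached those sizes. The median over all tested genes was 0.006, a value that the scaling of the libraries holds near 0 and that therefore says nothing about a shift of all genes.

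Among the rises, 41 genes had 0 counts in every day 7 library. These genes passed the filter on low counts only through their day 14 libraries, so a large fold was a condition of their being tested and is not read as a result. With each set to its lower bound, against a floor of 3 counts over the day 7 group, the median of the rises stayed 2.63 on the log2 scale. Even the smallest bound, 14.5-fold, lay above that median, so the median could not move and the step tests nothing. Rises with a few day 7 counts that passed the filter in the same way were not set to a bound. No gene that fell was at 0 in all 4 day 14 libraries. The 4 day 7 and 4 day 14 libraries did not overlap in 29.7% of tested genes, and in 1597 of the rises and 1163 of the falls.

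The number of calls depended strongly on single libraries. It was 1312, 1703 and 1043 without day 14 replicate 1, 3 or 4, and 1854 and 1316 without day 7 replicate 2 or 3 (edgeR in each case). Without any one of the 8 in turn, 973 of the 2922 genes kept their call and direction, 693 rises and 280 falls. The 1023 rises of 4-fold or more became 609 to 1627, and the 195 such falls 84 to 286, without day 14 replicate 4 and without day 7 replicate 1. The fit of all 30 libraries called 5040 genes, DESeq2 4530 and limma voom, weighted by sample quality, 4538, and these included 2846, 2913 and 2861 of the 2922. Among the 11028 genes not called, the 95% interval lay within a 2-fold change either way in 55.4%. A further 1594 of them had estimates of 2-fold or more, 1072 higher and 522 lower, that the spread did not allow to be called.

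**Figure D2:**
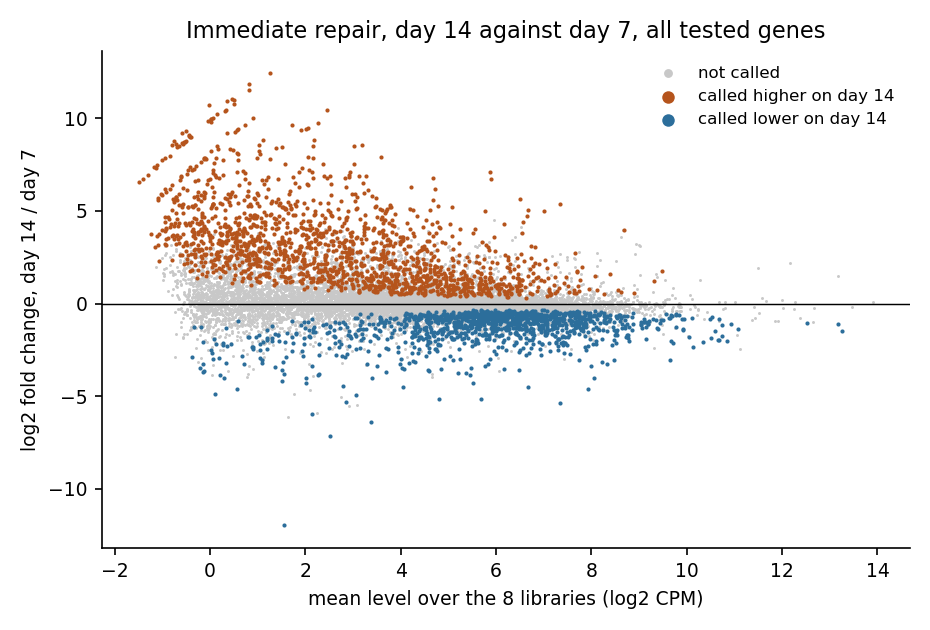
Log2 fold change, day 14 over day 7 of immediate repair (vertical axis), against the mean log2 CPM over the 8 libraries (horizontal axis), 1 point per tested gene, with the 1642 genes called higher and the 1280 called lower in colour. Rises extend to far larger changes than falls, with 449 rises and 21 falls of 16-fold or more.

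Genes that are abundant in uninjured nerve were called most often, both as rises and as falls. Tested genes were grouped by their mean level in the 5 control libraries, which entered the test only through scaling factors taken from all 30 libraries. Among 1977 genes at 100 CPM or more in control nerve, 17.8% rose and 10.4% fell. Among the 7459 genes at 10 to 100 CPM the shares were 11.2% and 9.67%, among the 3346 at 1 to 10 CPM 10.5% and 7.80%, and among the 1168 under 1 CPM 8.65% and 7.96%. In the most abundant group 213 rises and 12 falls were 4-fold or more. In the group under 1 CPM the corresponding numbers were 94 and 56. The median log2 fold change of all tested genes was 0.03, -0.01, 0.08 and -0.11 from the most to the least abundant group. Higher counts also make a change easier to call, and this was not separated from the shares.

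The direction of change was next set against healthy nerve. To keep libraries apart, the distance from control nerve was taken from day 7 of delayed repair. There, 29.5% of tested genes were higher and 32.2% lower than in control nerve (edgeR, adjusted p under 0.05). Of the 4617 genes lower there, 3991 were also tested in immediate repair. Of these, 1141 (28.6%) rose over the week of immediate repair and 40 (1.00%) fell. A gene near 0 counts on day 7 of immediate repair was tested only if its day 14 libraries passed the filter. That can raise the share of low genes that rose. Of the 4225 genes higher on day 7 of delayed repair, 4211 were also tested in immediate repair. Of these, 1036 (24.6%) fell and 37 (0.88%) rose. Of the 5304 genes with no call there, 7.16% rose and 3.71% fell. Thus 2177 of the 2254 genes called in both comparisons (96.6%) changed against their difference from control nerve on day 7 of delayed repair. Such genes are counted as toward control nerve. The count rests on direction only. It does not place the genes against control nerve in immediate repair, and a change past its level is included. The share of 96.6% was 93.9% to 97.4% under every alternative tried, leaving out single libraries included. The number itself was 984, 1239 and 753 without immediate day 14 replicate 1, 3 or 4 and 1366 and 983 without immediate day 7 replicate 2 or 3.

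Among genes tested in both, the size of the change followed the distance from control nerve, more steeply for genes that had been low. Genes up to 2-fold lower than control nerve had a median log2 fold change of 0.15 from day 7 to day 14, and 8.05% of them rose. At 4-fold to 8-fold lower the median was 1.43 and 39.7% rose, at 16-fold to 32-fold lower 2.59 and 63.9%, and over 32-fold lower 4.09 and 78.0%. On the other side, genes up to 2-fold higher than control nerve had a median of -0.24, with 13.7% falling. The share that fell was 34.5% at 4-fold to 8-fold higher, with a median of -0.76, and 31.8% at over 32-fold higher, with a median of -1.23. The share that fell thus stayed between 30.6% and 36.6% in each class from 4-fold on, whereas the share that rose among low genes went up class by class. High and low genes were not compared by a test. Low genes that stayed near 0 counts on both days were left out by the filter on low counts. The climb of the share that rose, and its contrast with the high genes, can therefore come in part from that filter.

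**Figure D3:**
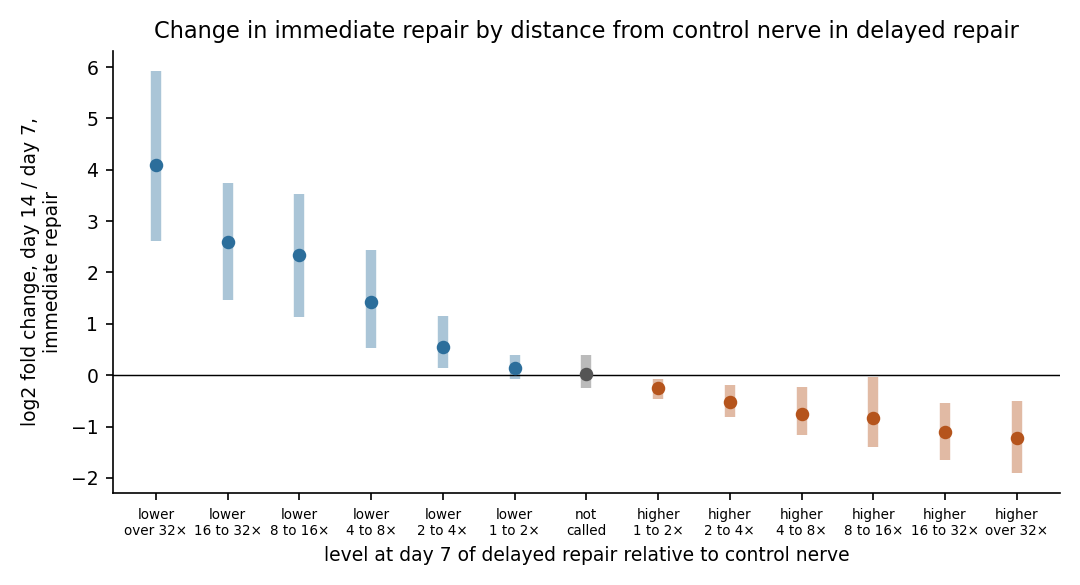
Change from day 7 to day 14 of immediate repair (vertical axis, log2 fold change; points, medians over genes; bars, quartiles) for genes grouped by how far they stood from control nerve at day 7 of delayed repair. The median runs from 4.09 for genes over 32-fold lower to -1.23 for genes over 32-fold higher.

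Each library was then read on its own. The 1437 tested genes that were called and at least 4-fold lower than control nerve at day 7 of delayed repair stood, relative to the mean of the immediate day 7 libraries, at medians of 2.58, 1.72, 2.24 and 2.44 (log2) in day 14 replicates 1 to 4. The 4 day 7 libraries themselves stood at 0.68, 0.06, -0.08 and -0.60. The 5 day 21 libraries stood between 1.72 and 3.06 (2.59 ± 0.51, SD, n = 5), a range that covers all of the day 14 values (2.24 ± 0.38, SD, n = 4). The 1507 genes at least 4-fold higher stood at -1.34, -0.42, -0.96 and -0.89 in day 14 replicates 1 to 4, against -0.26, -0.05, 0.10 and 0.17 in the day 7 replicates, and at -1.60 to -0.56 on day 21. In both sets no day 14 library overlapped the day 7 libraries, and day 14 replicate 2 lay closest to them. The low set held only genes that passed the filter on low counts in the day 7 and day 14 libraries, so the same limit applies to it.

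Where the changed genes stood afterwards was read from libraries that had not been used to find them, beyond the shared scaling factors. The 1642 rises lay at a median log2 level of -2.35 ± 0.97 (SD of library medians, n = 5) relative to control nerve on day 7 of delayed repair, at -0.38 ± 0.13 (n = 4) on day 14 and at -0.44 ± 0.22 (n = 3) on day 21. On day 21 of immediate repair they lay at -0.31 ± 0.24 (n = 5). The 1280 falls lay at 1.47 ± 0.32, 0.55 ± 0.11 and 0.60 ± 0.23 on the 3 days of delayed repair, and at 0.43 ± 0.21 on day 21 of immediate repair. The median of the rises on day 14 of delayed repair was -0.16 with the rises called without immediate day 7 replicate 1 and -0.58 with those called without immediate day 14 replicate 1. The corresponding values were -0.26 and -0.59 on day 21 of delayed repair, and -0.17 and -0.39 on day 21 of immediate repair. In the 8 libraries that chose them, the rises had stood at -2.90 ± 0.59 on day 7 and -0.46 ± 0.33 on day 14, and the falls at 1.59 ± 0.21 and 0.52 ± 0.19 (SD, n = 4 each). In delayed repair every day 7 library was farther from control nerve than every day 14 and day 21 library in both sets, while the day 14 and day 21 libraries overlapped.

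**Figure D4:**
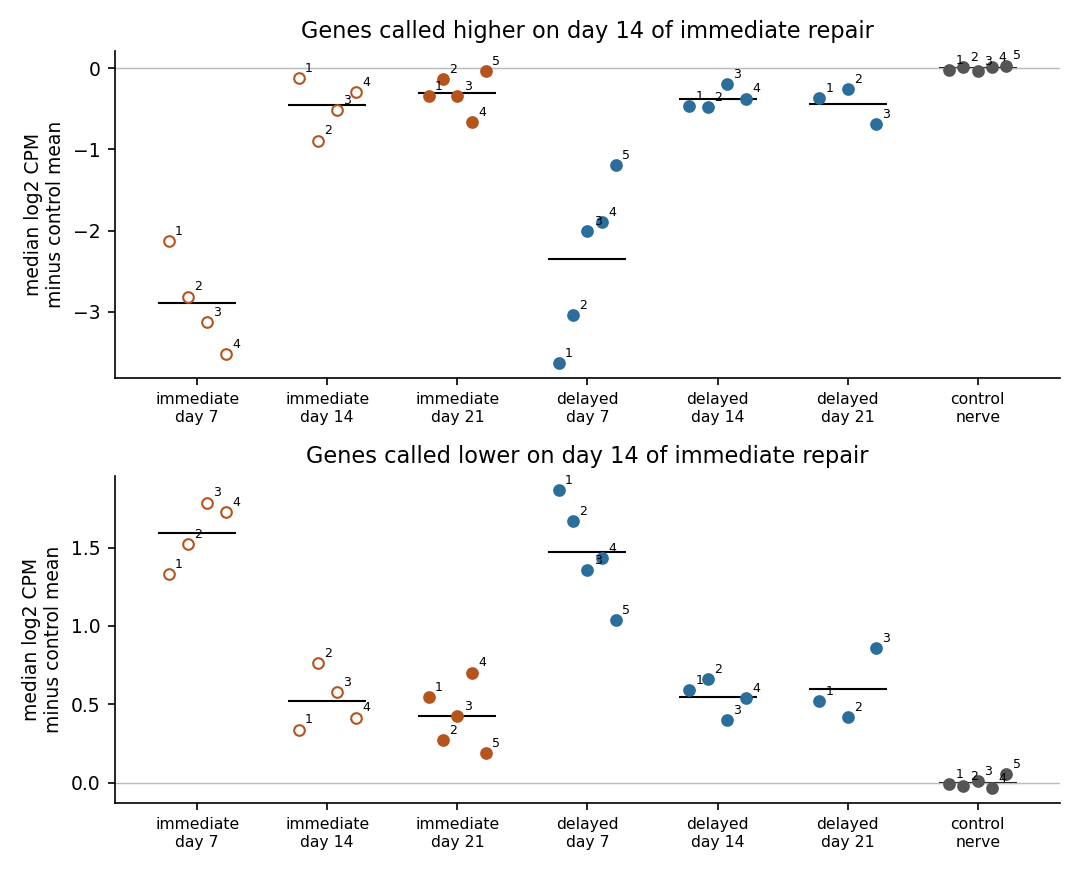
Median level of the genes called higher (top) and lower (bottom) on day 14 of immediate repair, as log2 CPM minus the mean of control nerve, in each library (points, numbered by replicate; lines, group means). The 8 libraries that chose the genes are drawn open. In the delayed libraries, which entered the choice only through the scaling factors, the rises go from between -3.63 and -1.19 on day 7 to between -0.48 and -0.20 on day 14.

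A median near control nerve held genes on both sides of it. On day 7 of delayed repair 73.2% of the tested rises were called below control nerve and 2.37% above it (32.2% and 29.5% of all tested genes). On day 14 of delayed repair 48.1% were below and 26.7% above, where 33.6% and 31.3% of all tested genes were. On day 21 of delayed repair 45.8% were below and 21.4% above (29.7% and 27.5% of all tested genes). On day 21 of immediate repair 38.9% were below and 22.2% above (28.5% and 27.3% of all). Of the falls, 81.4% were above control nerve on day 7 of delayed repair and 3.14% below it. On day 14 those shares were 56.2% and 18.4%, on day 21 54.8% and 12.8%, and on day 21 of immediate repair 49.6% and 15.7%. The shares of all tested genes in each group are those given beside the rises. These counts against control nerve share the control libraries, and each is given on its own.

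The changed genes also made up different parts of the RNA. The rises held 1.55% to 2.71% of the counts of the day 7 libraries and 5.92% to 10.4% of those of day 14, against 18.5% to 20.8% in control nerve. The falls held 22.6% to 32.7% on day 7 and 10.7% to 16.3% on day 14, against 10.2% to 10.6% in control nerve. In each day 14 library the rises were thus below, and the falls above, their share in every control library. In delayed repair, outside the choice of genes, the rises held 1.4% to 4.67% on day 7 and 7.96% to 10.2% on day 14, and the falls 17.9% to 34.0% and 11.8% to 13.5%. On day 21 of immediate repair the shares were 8.87% to 13.9% and 10.5% to 13.9%.

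Delayed repair was the most like comparison, made on other libraries. From its day 7 to its day 14, 23.4% of tested genes changed (12% higher and 11.3% lower; edgeR, 4 against 5 libraries). Of the 13837 genes tested in both repairs, 1821 were called in both, which was 62.8% of the immediate and 55.9% of the delayed calls, and all 1821 had the same direction. Of the rises of immediate repair, 1570 of 1621 were also higher on day 14 of delayed repair, and 1273 of 1278 falls were also lower. Their median log2 fold changes were 2.61 and -1.05 in immediate repair, which chose them, and 1.73 and -0.94 in delayed repair. For the genes called in delayed repair the medians were 1.70 and -0.93 there and 1.61 and -0.91 in immediate repair. Across genes, which are not independent replicates, the changes of the repairs had a Pearson r of 0.819 and a Spearman rho of 0.847. The delayed count of 3341 was 1517, 2061, 1378 and 1451 without delayed day 14 replicates 1 to 4, 1997 without delayed day 7 replicate 2 and 4862 without delayed day 7 replicate 5.

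Whether the change from day 7 to day 14 differed between the repairs was tested directly. Of 14826 genes tested, 0% were called by edgeR, and 455 (3.07%) had an unadjusted p under 0.05. With DESeq2 14 genes were called, and with weighted limma voom 0. The 95% interval of the difference lay within 2-fold in either direction for 46.5% of genes and within 4-fold for 72.4%. For the remaining genes larger differences were within the error. Among the 2922 genes called in immediate repair, the interval lay within 2-fold for only 33.5%. Of these 2922, 244 had an unadjusted p under 0.05 from edgeR. They were chosen with libraries that also enter the difference, so the 244 are not read as a result.

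By the rule for named genes, the 2 largest rises and the 2 largest falls were taken among 2259 called genes, those without overlap between the days and at 1 or more in mean log2 CPM. Being picked for these changes, the genes give no support for their sizes or p-values, which are only described. A gene at or near 0 counts on a day was also tested only through the other day. ENSRNOG00000061731 had 0 counts in all 4 day 7 libraries and measured 28.9, 20.3, 76.2 and 67.1 CPM in day 14 replicates 1 to 4. That made it at least 855-fold higher on day 14, against a floor of 3 counts over the day 7 group (edgeR adjusted p = 0.00511). Control nerve held 209.8 to 274.8 CPM, so the gene went from undetected to well under its level in uninjured nerve. On day 21 of immediate repair it measured 118, 146, 117, 3.41 and 204 CPM in replicates 1 to 5, with replicate 4 far under the rest. In delayed repair it measured at most 0.83 CPM on day 7 and 30.01 to 58.2 CPM on day 14, a log2 change of 6.96 (SE 0.94, edgeR adjusted p = 0.00484).

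ENSRNOG00000002730 measured 0.26, 0.08, 0 and 0.09 CPM in day 7 replicates 1 to 4, together 6 counts, and 340.1, 113, 53.9 and 152 CPM on day 14. With so few day 7 counts, the gene was tested only through its day 14 libraries. The log2 fold change was 10.44 (SE 0.91, edgeR adjusted p = 0.00298), and it was 9.81 without day 14 replicate 1 and 11.40 without day 7 replicate 1. All day 14 libraries were far above all day 7 libraries, and they spanned the level of control nerve, 82.4 to 110.6 CPM. In delayed repair the day 7 libraries were far from uniform, at 0.19, 0.14, 6.42, 25.8 and 102.6 CPM, against 105 to 254.5 CPM on day 14. There the change did not pass the test (log2 2.69, SE 1.39, edgeR adjusted p = 0.181). The difference between the repairs was 7.75 on the log2 scale (SE 2.16) with an unadjusted p of 0.00264 from edgeR, which did not pass adjustment over all genes (adjusted p = 1.000).

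ENSRNOG00000002916 measured 22.1, 25.6, 60.1 and 299.5 CPM in day 7 replicates 1 to 4, with replicate 4 far above the rest. Only 1 count was found in the 4 day 14 libraries together, in replicate 2 (edgeR adjusted p = 0.00480). The gene was thus tested only through its day 7 libraries. The ratio of the summed counts was 5373 (95% interval 964 to 212266, counting error only), and day 7 replicate 4 supplied 3326 of the 4868 day 7 counts. The fitted log2 fold change, whose size depends on the prior count, was -11.96, and it was -10.48 without day 7 replicate 4 and -13.48 without day 14 replicate 2, called each time (edgeR adjusted p = 0.00303 and 0.0224). In delayed repair the libraries of a day lay closer together, with 12.3 to 25.2 CPM in the 5 of day 7 and 0 in the 4 of day 14. Control nerve held 0.12 to 3.8 CPM, between the levels of day 7 and day 14. On day 21 of immediate repair 4 libraries lay between 0 and 0.36 CPM and replicate 4 at 10.8 CPM.

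ENSRNOG00000015751 measured 10.2, 10.6, 162.8 and 209.7 CPM in day 7 replicates 1 to 4 and 0.27, 1.25, 0.63 and 0.54 CPM on day 14. Day 7 thus held 2 low and 2 high libraries, all of them above day 14. The log2 fold change was -7.16 (SE 1.30, edgeR adjusted p = 0.0119). It was -6.47 without day 7 replicate 4, and with weighted limma voom it was -5.31 and no longer called (adjusted p = 0.0631). Control nerve held 1.4 to 3.56 CPM, above every day 14 library of immediate repair. Delayed repair went from between 7.31 and 342.7 CPM on day 7 to between 0.31 and 1.91 CPM on day 14 (log2 -6.38, SE 1.33, edgeR adjusted p = 0.0135).

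**Figure D5:**
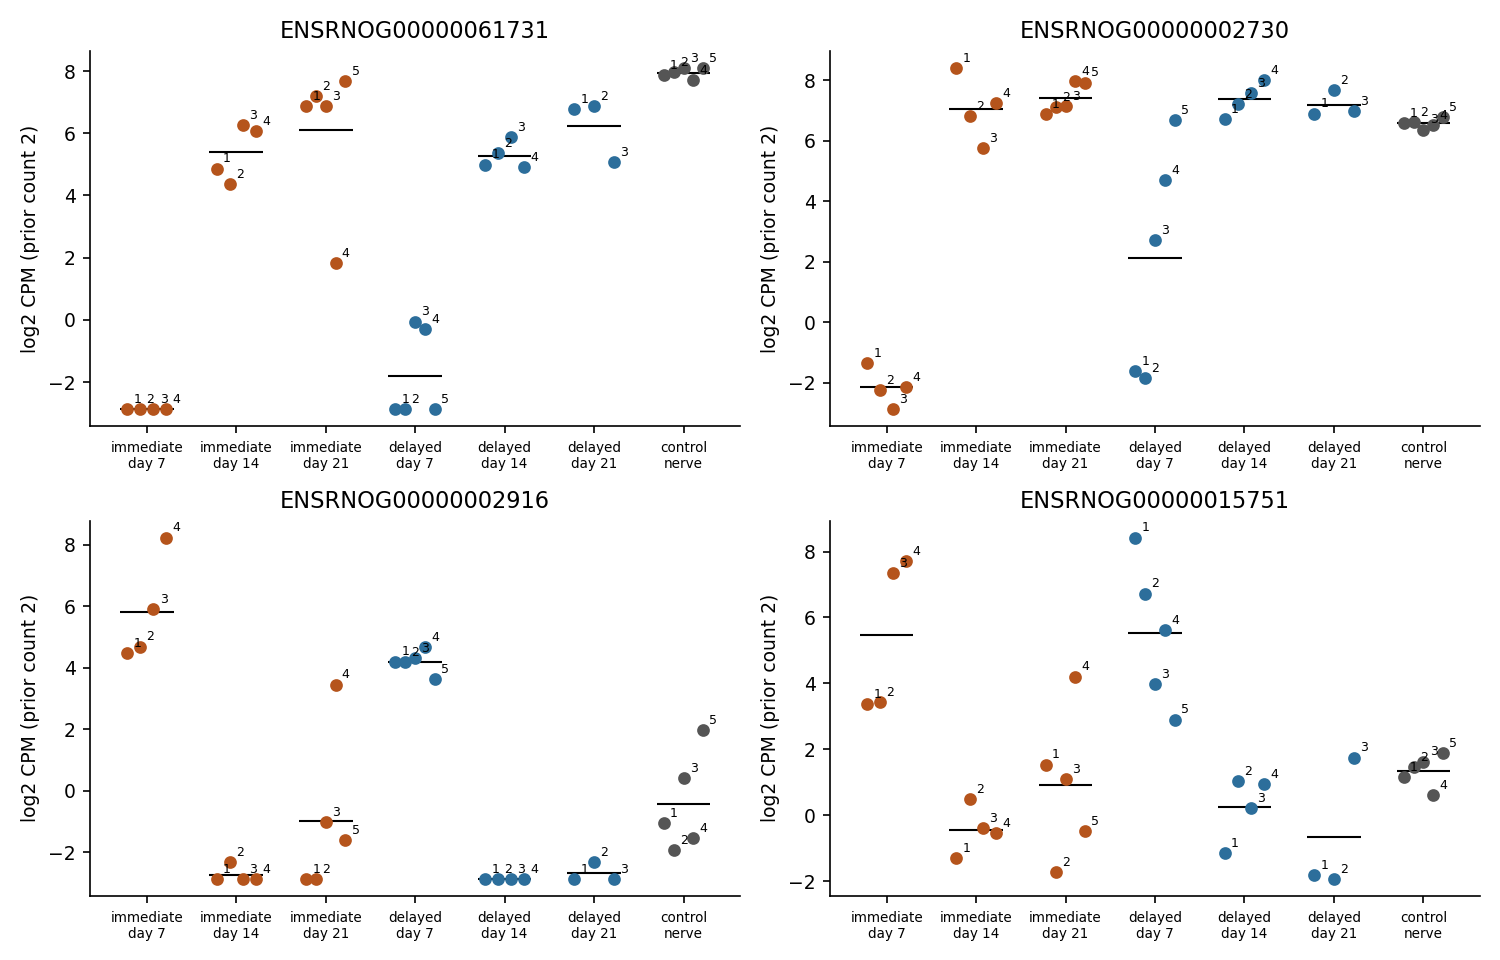
Log2 CPM (prior count 2) of the 4 named genes in each of the 30 libraries (points, numbered by replicate; lines, group means). Libraries with 0 counts sit at the bottom of each panel. The top genes go from 0 to 0.26 CPM on day 7 to 20.3 CPM or more on day 14 of immediate repair, and the bottom genes from 10.2 CPM or more to at most 1.25 CPM.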

How the data were processed

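Per the labels' protocols, 400 ng of total RNA went into each library, with poly(T) capture and no strand marking, so overlapping and antisense genes cannot be told apart. The authors deposited raw read counts per Ensembl gene ID, not pooled over replicates. DESeq2 1.38.3, HISAT2 2.0.5 and featureCounts 1.5.0-p3 are named in the submitters' processing notes. For the genome build, the annotation release and reads shared by near-identical genes, nothing is stated in the sources used here. Columns were matched to samples by library name.

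Counts were analysed in R 4.3.3 with edgeR 4.0.16: filterByExpr on the 8 libraries (13950 of 32545 genes kept), TMM factors from all 30 libraries, robust quasi-likelihood tests on the libraries compared, and Benjamini-Hochberg adjustment over all tested genes at 0.05. An earlier fit shared 1 spread over all 30 libraries. Here only the libraries compared set the spread, and that fit is an alternative. The difference between repairs used the 17 libraries of days 7 and 14. Comparisons with control nerve each used their own libraries. CPM used TMM-scaled totals, and medians over gene sets used log2 CPM with a prior count of 2. SEs came from the test statistic. No pair of the 8 libraries agreed within sampling noise (lowest chi-square per degree of freedom 39.6).

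The comparison, gene sets and lists were chosen with earlier results of these data known. Gene lists by symbol could not be applied, since 0 IDs matched, and were not tested. The rule for named genes was the largest rises and falls among called genes without overlap and with mean log2 CPM of at least 1, reduced to 2 of each without symbols. Alternatives were DESeq2 1.42.0, limma 3.58.1 voom with sample quality weights, other factors, no filter, all libraries in the fit, a block for the replicate number, and each library left out in turn.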

Additional observations from a re-analysis of the deposited data

Results flagged for a closer look

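Among 66 groups of values examined, 6 held a library flagged as apart from the others of its group. Chance alone flags about 1 in 20 groups only where values are normally spread and groups independent. CPM near 0 and reused libraries do not meet that, so the number of flags is not read as a result. ENSRNOG00000002916 measured 299.5 CPM in immediate day 7 replicate 4, against 22.1 to 60.1 CPM in the other 3. The same gene measured 10.8 CPM in immediate day 21 replicate 4, against at most 0.36 CPM in the other 4, and ENSRNOG00000015751 measured 18.3 CPM there, against at most 2.77 CPM. In immediate day 14 replicate 2, ENSRNOG00000002916 measured 0.063 CPM, from 1 count, where the other 3 had 0. A single count among 0s always raises this flag. ENSRNOG00000002730 measured 102.6 CPM in delayed day 7 replicate 5, against 0.14 to 25.8 CPM in the other 4. The total of delayed day 14 replicate 2 was 12628256 counts, against 15324900 to 15509515.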

How the results depend on the processing

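Rises outnumbered falls in immediate repair under each setting tried, at 54.3% to 70.9% of calls, and the 4 named genes kept their direction. Against the 2922 calls (1642 higher, 1280 lower), DESeq2 gave 4530 (2537 and 1993), voom with sample quality weights 4538 (2508 and 2030) and the fit of all 30 libraries 5040 (2777 and 2263). The last 2 settings called 5064 and 5304 genes in delayed repair, against 3341, and put 3441 and 3632 genes toward control nerve, against 2177. For the difference between repairs DESeq2 called 14 genes, and the other settings 0. With the replicate number as a block, 1913 genes were called, 765 of them lower. The deviations of same-numbered libraries of the days correlated at r = 0.32, -0.18, -0.10 and -0.06 for numbers 1 to 4. Those of differently numbered libraries ran from -0.38 to 0.31. The values thus show no common pairing by number, but 4 of them cannot exclude one. Leaving out each library in turn gave 1043 to 4032 calls, 739 to 2427 higher and 304 to 1605 lower. It gave 1378 to 4862 calls in delayed repair, 753 to 2761 genes toward control nerve and 0 calls for the difference. Each of these fits had 1 library fewer, and for the other settings the cause was not tested. The Pearson r between the repairs was 0.562 without the filter on low counts and 0.927 and 0.932 with voom and the block. Other factors moved the median of all genes by under 0.1, but scaling holds that median near 0, so this tests nothing.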

Other observations

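A small set changed in the other direction. Of the genes called on day 7 of delayed repair against control nerve, 40 were lower there and fell over the week of immediate repair. Another 37 were higher there and rose. Their level against control nerve on day 7 of immediate repair was not tested. A further 577 changed in immediate repair without a call against control nerve on day 7 of delayed repair, 380 of them higher and 197 lower.

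Single libraries held most of the values nearest to the other day. Day 7 replicate 1 was the day 7 library closest to day 14 in 1118 of the 1642 rises (68.1%) and 799 of the 1280 falls (62.4%). Day 14 replicate 2 was the day 14 library closest to day 7 in 1031 rises (62.8%) and 828 falls (64.7%).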
